A study of Mus musculus with 28 samples.

Results

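Chemokine ligands are small secreted proteins that attract leukocytes, and 9 of their genes, *Ccl2*, *Ccl3*, *Ccl4*, *Ccl5*, *Ccl6*, *Ccl9*, *Ccl12*, *Cxcl10* and *Cxcl16*, are described here in hippocampal microglia. They were chosen by name, with earlier results of these data known, so counts set beside the share over all genes are descriptive only. All 9 were found among the 48587 genes of the count table, 1 row each. All 9 passed the filter for low counts, which left 15298 genes to be tested. RNA was sequenced from FACS-isolated CD11b+CD45low hippocampal cells of 28 mice, 1 library per mouse, after cells carrying lymphocyte, Ly6C or Ly6G markers had been gated out. The mice were 5xFAD transgenic animals, a model of Alzheimer's disease, and their non-transgenic wild-type (WT) littermates on a C57BL/6J background, all male and 16 weeks old. 5xFAD mice are heterozygous for mutant human APP and PS1 transgenes driven by the neuron-specific Thy-1 promoter, so the microglia are not the cells in which the transgenes are meant to be expressed. Mice were kept specific pathogen-free (SPF, 5 WT and 3 5xFAD), germ-free (GF, 4 WT and 5 5xFAD) or specific pathogen-free with a cocktail of vancomycin, cefoxitin, gentamicin and metronidazol in the drinking water for 8 weeks (ABX, 5 WT and 6 5xFAD). Germ-free animals were supplied by a facility in Bern and all others by Freiburg, and the effects of origin and of germ-free life cannot be told apart. The design asks how the 5xFAD genotype changes microglial expression under each of these conditions and how the conditions change it within each genotype.

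CC and CXC chemokines act through G protein-coupled receptors on the cells they attract. CCL3, CCL5, CCL6 and CCL9 bind CCR1, CCL2 and CCL12 attract monocytes through CCR2, CXCL10 attracts T cells through CXCR3, and CXCL16 is a membrane-bound ligand of CXCR6 that ADAM10 can shed. In the brain microglia and other macrophages make several of them, *Ccl3* and *Ccl4* are known from microglia near amyloid plaques, and *Cxcl10* is a classic interferon-induced gene.

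Several libraries needed care before the values were read. Mouse FAD_GF_201 is a 5xFAD mouse by its title and genotype labels, while its description carries a WT code. It was kept among the GF 5xFAD mice. It was the lowest of the 5 GF 5xFAD mice for 7 of the 9 ligands, and its *Ccl3*, *Ccl4*, *Ccl6* and *Cxcl16* levels lay above those of all 14 WT mice. Library totals ran from 14441610 to 29977395 reads. The 8 microglial marker genes, *P2ry12* and *Tmem119* among them, summed to 57785 to 64590 CPM (read counts relative to library size) in WT mice and to 45235 to 55906 CPM in 5xFAD mice. The 8 neutrophil marker genes summed to 61.1 to 263 CPM in the 3 SPF 5xFAD mice and to 143.6 CPM in mouse FAD_ABX_1151, and to at most 0.294 CPM in the WT mice and 0.0495 CPM in the GF 5xFAD mice. The 6 marker genes of border-associated macrophages summed to 3.44 to 8.03 CPM in SPF WT and 3.67 to 5.54 CPM in ABX WT mice, 14.8 to 28.1 CPM in SPF 5xFAD, 10.1 to 39.0 CPM in GF WT, 9.27 to 76.1 CPM in GF 5xFAD and 32.6 to 242 CPM in ABX 5xFAD mice. The part of these cells in the ligand levels was not tested. In bulk RNA, fewer cells that express a gene and less RNA of it per cell cannot be told apart.

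The 250 bases before the start of transcription of 4 ligand genes are shown for comparison: *Ccl3* and *Ccl6*, which rose in 5xFAD mice, and *Cxcl10* and *Ccl9*, which were not called. RefSeq on GRCm38.p6 gave these sequences for 5 of the 9 genes (*Ccl3*, *Ccl6*, *Ccl9*, *Ccl12* and *Cxcl10*). They are written 5′ to 3′ on the strand of the gene, and capitals mark matches to the kappaB consensus, to the ISRE core (GAAA, any pair of bases, GAAA) and to the AP-1 site TGANTCA, each searched on both strands. The PU.1 core GAGGAA (both strands) and the TATA box TATAAA (strand of the gene) were searched too and are not capitalised.
*Cxcl10* (chr5:92348890-92349139, minus strand): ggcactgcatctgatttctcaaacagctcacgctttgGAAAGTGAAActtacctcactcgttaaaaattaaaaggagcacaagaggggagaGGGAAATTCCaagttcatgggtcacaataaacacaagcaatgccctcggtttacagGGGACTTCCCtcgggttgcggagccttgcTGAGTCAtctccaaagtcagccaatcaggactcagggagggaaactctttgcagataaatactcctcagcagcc
*Ccl9* (chr11:83578637-83578886, minus strand): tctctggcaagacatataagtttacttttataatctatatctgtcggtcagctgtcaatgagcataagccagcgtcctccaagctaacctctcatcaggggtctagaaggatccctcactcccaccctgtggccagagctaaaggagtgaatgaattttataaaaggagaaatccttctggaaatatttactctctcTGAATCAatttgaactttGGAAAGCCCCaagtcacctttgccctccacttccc
*Ccl3* (chr11:83649379-83649628, minus strand): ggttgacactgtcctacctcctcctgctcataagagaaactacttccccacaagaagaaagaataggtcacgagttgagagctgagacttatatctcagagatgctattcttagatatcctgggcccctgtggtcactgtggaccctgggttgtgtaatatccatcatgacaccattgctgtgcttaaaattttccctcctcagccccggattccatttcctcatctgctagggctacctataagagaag
*Ccl6* (chr11:83593088-83593337, minus strand): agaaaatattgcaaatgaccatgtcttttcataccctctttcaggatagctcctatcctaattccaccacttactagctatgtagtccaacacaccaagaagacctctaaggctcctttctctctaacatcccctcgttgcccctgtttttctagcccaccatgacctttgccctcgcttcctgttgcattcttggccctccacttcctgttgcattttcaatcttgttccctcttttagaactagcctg
The *Cxcl10* promoter held 2 kappaB matches, which began 159 and 103 bases before the start, 1 ISRE core at 213 bases and 1 AP-1 site at 74 bases. The *Ccl9* promoter held 1 kappaB match at 35 and 1 AP-1 site at 53 bases. No match to the kappaB, ISRE or AP-1 motifs was found in the windows of *Ccl3*, *Ccl6* and *Ccl12*, which says only that these letters are not there. Among 32841 promoter windows of the same length, 3.9 percent held a kappaB match, 2.98 percent an ISRE core and 6.75 percent an AP-1 site. A PU.1 core began 33 bases before the start of *Ccl3* and 130 before that of *Ccl12*, and a TATA box 92 bases before that of *Ccl9* and 31 before that of *Ccl12*, where 23.3 and 7.59 percent of the windows held these motifs. No match overlapped another in these windows.

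Except *Cxcl10* and *Cxcl16*, the ligand genes lie close together on chromosome 11 of GRCm38, and the gene models of GENCODE M21 place them in 2 groups. *Ccl2* (chr11:82035571-82037453, plus strand) and *Ccl12* (chr11:82101845-82103400, plus strand) are 64391 bases apart, with 2 protein-coding genes between them. *Ccl5* (chr11:83525778-83530518), *Ccl9* (chr11:83572919-83578636), *Ccl6* (chr11:83587882-83593087) and *Ccl3* (chr11:83647844-83649355) follow on the minus strand, and *Ccl4* (chr11:83662584-83664683) on the plus strand. *Ccl9* and *Ccl6* are separated by 9245 bases and *Ccl3* and *Ccl4* by 13228 bases, with no other protein-coding gene in either gap. *Cxcl16* (chr11:70453983-70459984, minus strand) and *Cxcl10* (chr5:92346638-92348889, minus strand) lie elsewhere. *Ccl2*, *Ccl6*, *Cxcl10* and *Cxcl16* overlap a gene on the other strand (*Gm17268*, *E230016K23Rik*, *Art3* and *Zmynd15*). The strand setting of the counting is not given in the sources used here, so reads from the shared bases of these pairs cannot be told apart. Of the 50-base stretches of the *Cxcl16* transcripts, 16.9 percent also occur in *Zmynd15*, against 3.59 percent shared by *Cxcl10* with *Art3*.

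*Ccl3*, *Ccl4*, *Ccl6* and *Cxcl16* were higher in 5xFAD than in WT microglia under SPF, GF and ABX conditions alike. *Ccl5* passed the test in GF and ABX mice. *Ccl2*, *Ccl9*, *Ccl12* and *Cxcl10* passed in none of the 3 comparisons. Under SPF conditions 4 of 9 ligands were called, all higher, where 4.57 percent of all genes were called and 3.73 percent were called higher. In GF mice 5 of 9 were called higher (all genes: 15.6 percent called, 9.43 percent higher), and in ABX mice 5 of 9 (14.4 percent called, 9.45 percent higher). The 9 ligands had a median log2 fold change of 1.72 (SPF), 1.18 (GF) and 1.03 (ABX), where the median over all tested genes was -0.03, -0.03 and -0.01. In an F test over the 6 groups, 6 of 9 ligands were called (*Ccl3*, *Ccl4*, *Ccl5*, *Ccl6*, *Ccl12* and *Cxcl16*), where 33.2 percent of all genes were called. *Ccl2* (adjusted p = 0.177), *Ccl9* (adjusted p = 0.240) and *Cxcl10* (adjusted p = 0.793) were not. The levels of all 9 ligands in all 28 mice, in CPM scaled by TMM factors, are plotted gene by gene.

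**Figure D1:**
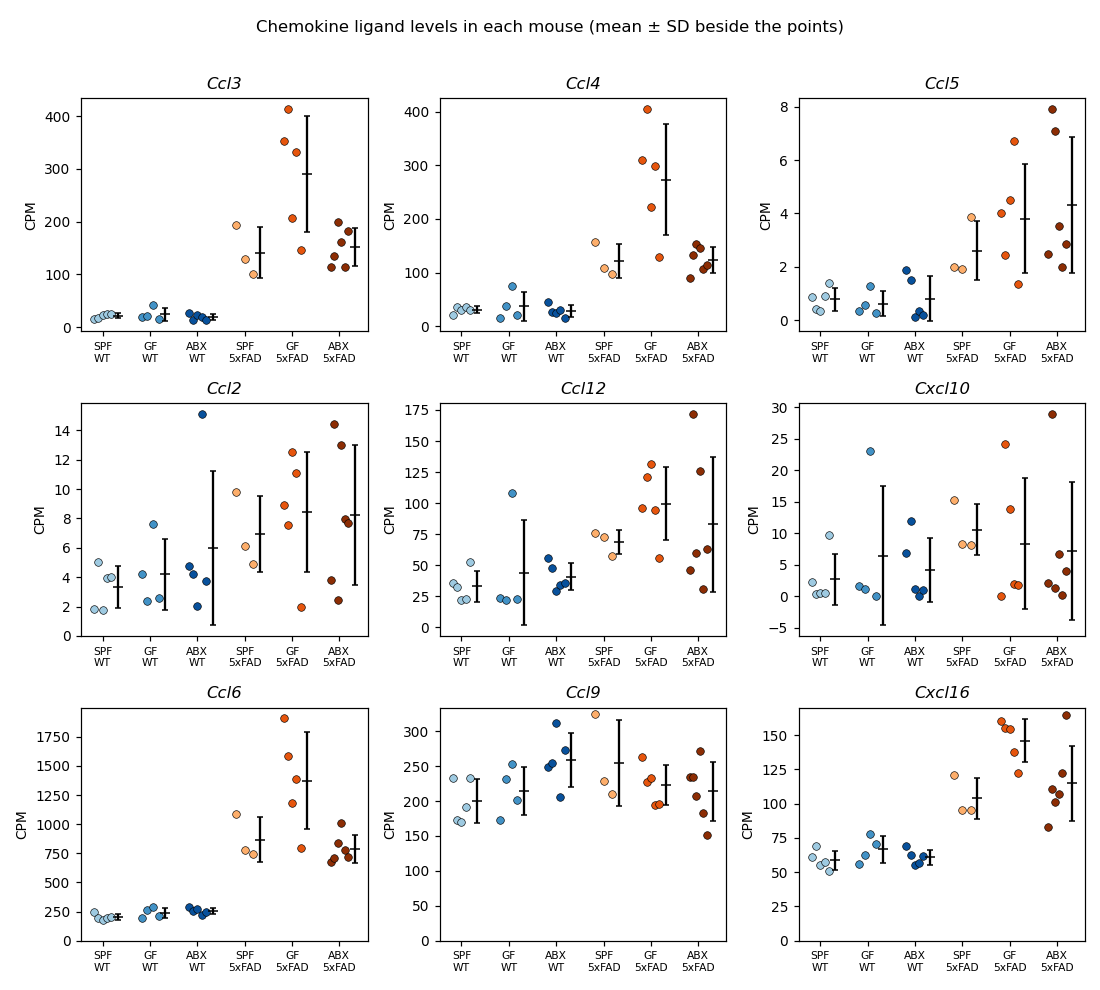
CPM of each ligand gene (y axes, linear, 1 panel per gene) in the 6 groups (x axes), with 1 point per mouse and the group mean with its SD drawn beside the points. The 14 5xFAD mice lie above all 14 WT mice for Ccl3, Ccl4, Ccl6 and Cxcl16, whereas the groups overlap for Ccl2, Ccl9 and Cxcl10.

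*Ccl3* encodes MIP-1 alpha, a ligand of CCR1, and had the largest genotype difference of the 9 ligands in each condition. In WT mice it measured 15.0, 17.9, 23.7, 25.5 and 25.03 CPM under SPF conditions, 19.3, 21.1, 41.7 and 14.8 CPM in GF mice and 25.99, 13.7, 22.5, 19.1 and 14.4 CPM under ABX. In 5xFAD mice it measured 194, 129 and 101 CPM in SPF mice and 353, 414, 207, 331 and 147 CPM in GF mice, and in the 6 ABX mice the lowest value was 114, the median 149 and the highest 199.3 CPM. The lowest 5xFAD mouse was above the highest WT mouse in every condition. *Ccl3* rose by 2.72 ± 0.30 on the log2 scale (SE) in SPF mice, 6.61-fold (adjusted p = 1.79e-07), by 3.58 ± 0.32 in GF mice, 12.0-fold (adjusted p = 1.35e-09), and by 2.98 ± 0.28 in ABX mice, 7.92-fold (adjusted p = 4.52e-09). Without mouse FAD_GF_201 the GF difference was 3.76, and over the 26 mice without FAD_ABX_1151 and FAD_ABX_1482 the ABX difference was 3.00.

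*Ccl4* encodes MIP-1 beta, which attracts monocytes and T cells, and its gene is the neighbour of *Ccl3*. It measured 20.96, 35.8, 31.1, 36.4 and 30.9 CPM in SPF WT, 16.2, 37.1, 74.9 and 20.2 CPM in GF WT and 45.3, 27.0, 24.9, 29.4 and 15.0 CPM in ABX WT mice. In 5xFAD mice it reached 157, 109 and 98.1 CPM under SPF and 310, 405, 221, 298 and 129 CPM under GF conditions, and under ABX it ranged from 90.8 to 153 CPM around a median of 124. Again no 5xFAD mouse lay within the WT range of its condition. The differences were 1.97 ± 0.35 on the log2 scale in SPF (adjusted p = 0.000375), 2.88 ± 0.36 in GF (adjusted p = 8.43e-07) and 2.14 ± 0.32 in ABX mice (adjusted p = 1.49e-05). The GF difference was 3.47 without mouse WT_GF_230, in which *Ccl4* was highest among WT mice, and 3.07 without FAD_GF_201. The ratio of *Ccl4* to *Ccl3* CPM was 1.47 ± 0.306 (SD, n = 5), 1.44 ± 0.446 (n = 4) and 1.48 ± 0.400 (n = 5) in SPF, GF and ABX WT mice, and 0.875 ± 0.0818 (n = 3), 0.942 ± 0.0838 (n = 5) and 0.835 ± 0.132 (n = 6) in the matching 5xFAD mice. This ratio was looked at after the levels had been seen and is given without a test.

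*Ccl6*, a CCR1 ligand of macrophages, was the most abundant of the 9 ligands in all 6 groups on the per-length scale (RPKM). Its mean rose from 114 ± 14.6 RPKM (SD, n = 5) in SPF WT to 484 ± 106 (n = 3) in SPF 5xFAD mice, from 134 ± 24.8 (n = 4) to 766 ± 234 (n = 5) in GF mice and from 142 ± 15.1 (n = 5) to 439 ± 68.1 (n = 6) in ABX mice. In CPM the mice measured 246, 195, 175, 197 and 206 in SPF WT, 197, 266, 290 and 209 in GF WT and 288, 255, 271, 217 and 242 in ABX WT mice. The 5xFAD mice measured 1087, 774 and 744 CPM under SPF and 1913, 1589, 1181, 1392 and 798 CPM under GF conditions, and 674 to 1007 CPM with a median of 748 under ABX. WT and 5xFAD mice did not overlap in any condition. The log2 differences were 2.09 ± 0.18 (adjusted p = 1.82e-09), 2.52 ± 0.19 (adjusted p = 3.1e-11) and 1.63 ± 0.16 (adjusted p = 1.27e-08) in SPF, GF and ABX mice. Without FAD_GF_201 the GF difference was 2.67, and over the 26 mice the ABX difference was 1.71.

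*Ccl9* lies 9245 bases from *Ccl6*, encodes another CCR1 ligand and did not share its genotype difference. Its mean was 200.3 ± 31.5, 215 ± 34.6 and 259 ± 38.4 CPM in SPF, GF and ABX WT mice and 255 ± 61.8, 223 ± 28.6 and 214 ± 42.5 CPM in the matching 5xFAD mice. The ranges of WT and 5xFAD mice overlapped in each condition. The log2 difference was 0.35 with a 95% interval from 0.0043 to 0.69 in SPF, 0.05 (-0.27 to 0.37) in GF and -0.27 (-0.56 to 0.01) in ABX mice, and the adjusted p-values were 0.341, 0.878 and 0.204. Over 36 alternatives the SPF difference ran from 0.14 to 0.48 and passed in none. On the intervals, a rise of *Ccl9* the size of that of *Ccl6* lies outside what the 3 comparisons allow. Its most extreme values over all 28 mice differed 2.14-fold, the narrowest range of the 9 ligands, where those of *Ccl3* differed 30.1-fold. From mouse to mouse within groups *Ccl9* and *Ccl6* did vary together, with a Pearson's r of their log2 CPM of 0.17 over the 28 mice and 0.63 once group means were removed.

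**Figure D2:**
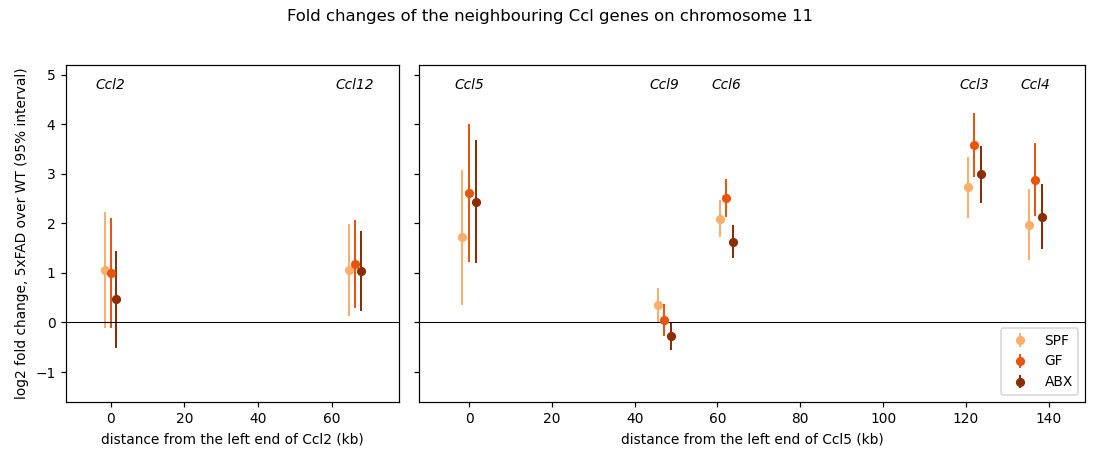
Log2 fold change of 5xFAD over WT mice with its 95% interval (y axis) for the Ccl genes of both chromosome 11 groups, placed by their distance in kb from the left end of Ccl2 or of Ccl5 (x axes), with 1 colour per condition and the 3 conditions drawn side by side at each gene. Ccl9 lies between -0.27 and 0.35 in the 3 conditions, its neighbour Ccl6 between 1.63 and 2.52, and Ccl3 and Ccl4 at the right end between 1.97 and 3.58.

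*Ccl5* encodes RANTES, a ligand of CCR1 and CCR3, and was barely detected, with 2 to 194 reads per library. It measured 0.856, 0.422, 0.335, 0.905 and 1.40 CPM in SPF WT, 0.358, 0.559, 1.29 and 0.258 CPM in GF WT and 1.89, 1.52, 0.119, 0.326 and 0.198 CPM in ABX WT mice. The 5xFAD mice measured 2.01, 1.92 and 3.87 CPM under SPF, 4.01, 2.45, 4.49, 6.70 and 1.35 CPM under GF and 1.99 to 7.92 CPM with a median of 3.21 under ABX conditions. Within each condition all 5xFAD mice were above all WT mice. The log2 difference was 2.61 ± 0.68 in GF (adjusted p = 0.00769) and 2.44 ± 0.60 in ABX mice (adjusted p = 0.00593). In SPF mice it was 1.72 ± 0.67 and did not pass (adjusted p = 0.176), though it passed with limma's voomWithQualityWeights (adjusted p = 0.0117) and in a fit of the SPF mice alone (adjusted p = 0.0333). *Ccl5* is also a gene of T and NK cells, whose 8 marker genes summed to 0 to 0.66 CPM in WT and 0 to 2.57 CPM in 5xFAD mice. The 1 gene of these 8 that passed the filter, the NK cell receptor gene *Klrb1c*, was called higher in 5xFAD than in WT mice under GF and ABX conditions and not under SPF conditions, as was *Ccl5*. In the GF 5xFAD mice, in the order of the *Ccl5* values above, *Klrb1c* measured 2.78, 1.77, 1.14, 0 and 0.363 CPM. Mouse FAD_GF_185, without a read of *Klrb1c*, thus had the highest *Ccl5* of these mice (6.70 CPM). *Klrb1c* measured 0.0564 to 2.21 CPM in ABX 5xFAD mice, was at 0 in all GF WT mice and reached at most 0.172 CPM in ABX WT mice. The other 7, *Cd3e* and *Nkg7* among them, were at 0 in all 5 GF 5xFAD libraries. The part of such cells in *Ccl5* was not tested.

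*Cxcl16*, the membrane-bound ligand of CXCR6, showed the smallest of the called genotype differences and a narrow spread. It measured 61.2, 69.1, 55.1, 57.5 and 50.8 CPM in SPF WT, 55.7, 62.4, 78.0 and 70.8 CPM in GF WT and 69.0, 62.2, 54.9, 56.4 and 61.8 CPM in ABX WT mice. The 5xFAD mice reached 121, 95.4 and 95.1 CPM under SPF, 160, 156, 154, 138 and 123 CPM under GF and 83.0 to 164 CPM with a median of 109 under ABX conditions. All 14 5xFAD mice lay above the highest WT mouse. The log2 difference was 0.82 ± 0.15 in SPF (adjusted p = 0.000551), 1.13 ± 0.14 in GF (adjusted p = 1.14e-06) and 0.92 ± 0.13 in ABX mice (adjusted p = 7.43e-06). Without FAD_GF_201 the GF value was 1.20, and over the 26 mice the ABX value was 0.86.

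Groups that do not overlap were counted as well. In SPF mice all 3 5xFAD mice were above all 5 WT mice for 6 of 9 ligands (*Ccl3*, *Ccl4*, *Ccl5*, *Ccl6*, *Ccl12* and *Cxcl16*), where 9.44 percent of all genes did not overlap in that direction. In GF mice this held for 5 of 9 ligands (9.14 percent of all genes) and in ABX mice for 5 of 9 (4.68 percent). Of 5 neutrophil markers tested, 5 were called higher in SPF, 0 in GF and 5 in ABX 5xFAD mice. In ABX 5xFAD mice they were high in FAD_ABX_1151 alone, and the 8 listed markers summed to 0 to 0.774 CPM in the other 5. Of 6 border-associated macrophage markers, 5, 0 and 6 were called higher. Markers of other lists were called as well. In SPF mice the monocyte marker *Chil3* and the endothelial marker *Flt1* were higher and the immediate early gene *Btg2* was lower. In GF mice the dendritic cell markers *Cd209a* and *Ccr7*, the astrocyte markers *Aldoc* and *Gfap* and the immediate early genes *Atf3* and *Ier2* were higher, and *Slc1a3* and *Pecam1* lower. In ABX mice *Chil3*, *Ccr2*, *Cd209a*, *Flt3*, *Flt1*, *Atf3* and *Ier2* were higher and *Pecam1* lower. Of 8 microglial markers 3, 4 and 4 were lower and 0 higher in SPF, GF and ABX mice. The part of any of these in the ligand levels was not tested.

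**Figure D3:**
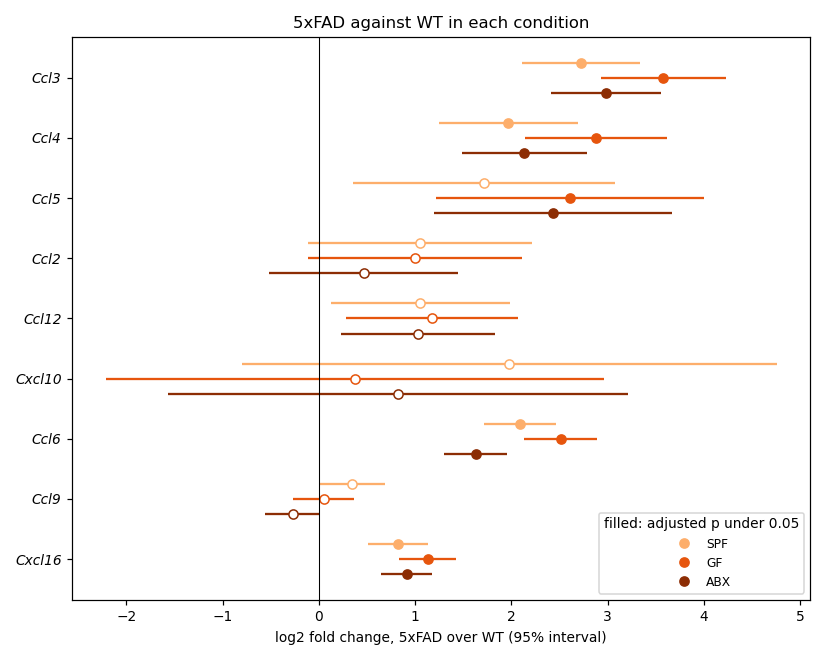
Log2 fold change of 5xFAD over WT mice (x axis) with its 95% interval (bars) for each ligand gene (y axis) in SPF, GF and ABX mice. Filled points passed an adjusted p of 0.05, which was so for Ccl3, Ccl4, Ccl6 and Cxcl16 in the 3 conditions and for Ccl5 in GF and ABX mice, while the bars of Cxcl10 span from -2.21 to 4.76.

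The CCR2 ligands *Ccl2* and *Ccl12* showed higher means in 5xFAD mice that did not pass the test. *Ccl12*, also called MCP-5, measured 35.5, 32.6, 21.8, 22.9 and 52.2 CPM in SPF WT, 23.3, 22.0, 108 and 23.1 CPM in GF WT and 55.9, 47.8, 29.1, 34.4 and 35.9 CPM in ABX WT mice. In 5xFAD mice it measured 76.1, 72.6 and 57.3 CPM under SPF, 95.9, 121, 131, 94.3 and 55.9 CPM under GF and 31.2 to 172 CPM with a median of 61.1 under ABX conditions. Mouse WT_GF_230 exceeded every other WT mouse, and the ABX 5xFAD mice were spread widely. The log2 differences were 1.06 ± 0.46 in SPF (adjusted p = 0.254), 1.18 ± 0.44 in GF (adjusted p = 0.067) and 1.03 ± 0.39 in ABX mice (adjusted p = 0.0773). Without mouse WT_GF_230 the GF difference was 2.12 and passed (adjusted p = 0.000513), and without FAD_GF_201 it was 1.33 and passed (adjusted p = 0.0386). Over the 26 mice the ABX difference passed as well, at 1.26 (adjusted p = 0.0406). Of 36 alternatives *Ccl12* passed in 6 in GF mice, among them voomWithQualityWeights, no filter and at least 10 counts in every library, in 5 in ABX mice, among them no filter, and in 2 in SPF mice, voomWithQualityWeights and the fit of the SPF mice alone. The adjusted p-values over these alternatives ran from 0.000513 to 0.205 in GF, 0.0254 to 0.248 in ABX and 0.00772 to 0.558 in SPF mice.

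*Ccl2*, or MCP-1, was low in all groups. It measured 1.83, 5.03, 1.79, 3.96 and 4.02 CPM in SPF WT, 4.25, 2.36, 7.62 and 2.58 CPM in GF WT and 4.75, 4.23, 2.02, 15.1 and 3.76 CPM in ABX WT mice. The 5xFAD mice measured 9.83, 6.10 and 4.89 CPM under SPF, 8.92, 7.58, 12.5, 11.1 and 1.97 CPM under GF and 2.48 to 14.5 CPM with a median of 7.82 under ABX conditions. WT and 5xFAD mice overlapped in each condition, and the highest value of all belonged to the ABX WT mouse WT_ABX_923. The log2 difference was 1.06 (95% interval -0.11 to 2.22) in SPF, 1.00 (-0.11 to 2.11) in GF and 0.47 (-0.51 to 1.45) in ABX mice, with adjusted p-values of 0.432, 0.232 and 0.583. Over 36 alternatives the ABX difference ran from 0.24 to 1.16 and passed in none.

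*Cxcl10*, the interferon-induced ligand of CXCR3, varied widely between mice of 1 group, with SDs of 4.05 to 11.1 CPM within groups and group means of 2.67 to 10.5 CPM. It measured 2.24, 0.384, 0.447, 0.517 and 9.78 CPM in SPF WT, 1.61, 1.06, 23.0 and 0 CPM in GF WT and 6.93, 11.9, 1.07, 0 and 0.989 CPM in ABX WT mice. The 5xFAD mice measured 15.2, 8.22 and 8.17 CPM under SPF, 0.0534, 24.1, 13.8, 1.89 and 1.82 CPM under GF and 0.181 to 29.0 CPM with a median of 3.03 under ABX conditions. Groups overlapped in each condition. The log2 difference was 1.98 ± 1.36 in SPF (adjusted p = 0.609), 0.38 ± 1.26 in GF (adjusted p = 0.893) and 0.82 ± 1.17 in ABX mice (adjusted p = 0.711). A count of 0 does not set *Cxcl10* at 0 in the 2 libraries that hold none, since a low level can be missed by chance.

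Interferon-response genes were among the 3 genes closest to each of *Ccl12* and *Cxcl10* from mouse to mouse. Over the 28 mice, the genes whose log2 CPM followed *Ccl12* most closely by Pearson's r were *Ifit3* (0.884), *Isg15* (0.881) and *Ifit3b* (0.878), and those closest to *Cxcl10* were *Ifit1* (0.787), *Ccl12* (0.666) and *Oasl1* (0.648). With group means removed, the closest gene was still *Ifit3* for *Ccl12* (0.804) and *Ifit1* for *Cxcl10* (0.774). Over the 11 listed interferon-response genes r then ranged from 0.356 to 0.804 around a median of 0.737 for *Ccl12* and had a median of 0.603 for *Cxcl10*, 0.517 for *Ccl2* and 0.438 for *Ccl5*, and of 0.0882 to 0.336 for the other 5 ligands. With group means kept the medians were 0.823 for *Ccl12* and 0.57 for *Cxcl10*, and 0.716 to 0.771 for *Ccl3*, *Ccl4*, *Ccl6* and *Cxcl16*. *Ifit3* measured 37.8 CPM in mouse WT_GF_230 and 2.48 to 10.9 CPM in the other 13 WT mice. *Ifit3* was also highest in mouse FAD_ABX_1452 (94.1 CPM) and mouse FAD_GF_184 (78.7 CPM), where *Ccl12* stood at 172 and 131 CPM and *Cxcl10* at 29.0 and 13.8 CPM. *Cxcl10* did not track *Ifit3* in every mouse, with 24.1 CPM at 20.5 CPM of *Ifit3* in mouse FAD_GF_182 and 1.89 CPM at 32.2 CPM of *Ifit3* in mouse FAD_GF_185. *Ccl2* was closest to *Coro2a* (0.754), *Tmem51* (0.746) and *Irf7* (0.735), and *Ccl5* to *Mnda* (0.877), *Ifit2* (0.858) and *C2* (0.846). These correlations describe 28 points that share libraries and groups, and no test was made of them.

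**Figure D4:**
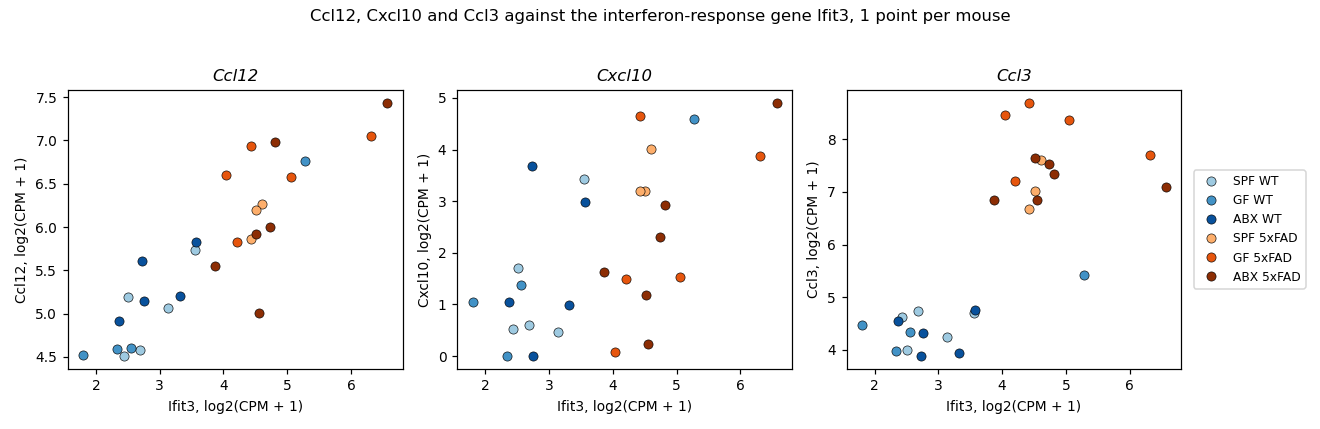
Log2(CPM + 1) of Ccl12, Cxcl10 and Ccl3 (y axes) against log2(CPM + 1) of the interferon-response gene Ifit3 (x axes), with 1 point per mouse coloured by group. The GF WT mouse with 37.8 CPM of Ifit3 stands apart from the other WT mice for Ccl12 and Cxcl10, whereas in the Ccl3 panel all 5xFAD mice lie above all WT mice at any level of Ifit3.

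Over the 28 mice the closest genes of *Ccl3*, *Ccl4*, *Ccl6* and *Cxcl16* had higher values of r than those of the other ligands. *Ccl3* was closest to *Plaur* (0.982), *Cd52* (0.975) and *Hs3st1* (0.974), *Ccl4* to *Ccl3* (0.974), *Fabp3* (0.963) and *Plaur* (0.962), *Ccl6* to *Cd9* (0.985), *Cd52* (0.983) and *Hexa* (0.974), and *Cxcl16* to *Cd68* (0.976), *Ctsz* (0.973) and *Tpm4* (0.972). *Plaur* encodes the urokinase receptor, *Cd9* a tetraspanin, and *Cd68* and *Hexa* are lysosomal genes. With group means removed, *Ccl3* and *Ccl4* were each other's closest gene (0.834), *Ccl6* was closest to *Ndufa1* (0.858) and *Cxcl16* to *Ergic3* (0.884). *Ccl9* was closest to *Smc6* (0.688), *Tmed5* (0.678) and *Gm43138* (0.675), and to Ugp2 (0.779) with group means removed.

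Among 5xFAD mice, *Ccl3*, *Ccl4*, *Ccl6* and *Cxcl16* were higher under GF than under SPF conditions. These 4 of 9 ligands were called, all higher, where 12.8 percent of all genes were called and 6.97 percent were called higher. *Ccl3* rose by 1.04 ± 0.31 on the log2 scale (adjusted p = 0.0265), *Ccl4* by 1.17 ± 0.37 (adjusted p = 0.0354), *Ccl6* by 0.66 ± 0.19 (adjusted p = 0.0208) and *Cxcl16* by 0.49 ± 0.16 (adjusted p = 0.0344). The median of the 9 ligands was 0.54 and that of all tested genes 0.02. For *Cxcl16* all 5 GF mice were above all 3 SPF mice, while for *Ccl3*, *Ccl4* and *Ccl6* mouse FAD_GF_201 fell among the SPF mice and the other 4 lay above them. Only 1 of 9 ligands did not overlap, where 10.4 percent of all genes were not overlapping and higher. The log2 differences of the other ligands were 0.28 for *Ccl2*, 0.55 for *Ccl5*, 0.54 for *Ccl12*, -0.19 for *Ccl9* and -0.33 for *Cxcl10*, with adjusted p-values from 0.502 to 0.908.

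These 4 calls depended on single mice. Without FAD_GF_201 the differences were larger (*Ccl3* 1.20, *Ccl4* 1.34, *Ccl6* 0.80, *Cxcl16* 0.54) and all 4 passed. Without either SPF mouse FAD_SPF_1146 or FAD_SPF_1148, or without either GF mouse FAD_GF_181 or FAD_GF_182, 0 of 9 ligands were called, at adjusted p-values of 0.0519 to 0.183 for the 4. The differences were then 0.83 to 0.96 for *Ccl3*, 0.97 to 1.11 for *Ccl4*, 0.51 to 0.60 for *Ccl6* and 0.42 to 0.46 for *Cxcl16*. *Cxcl16* was also lost without FAD_GF_184 and *Ccl4* without FAD_GF_185. The number called was 2 when libraries were scaled by their totals alone (*Ccl3* and *Ccl6*) and 2 when only the SPF and GF 5xFAD mice were fitted (*Ccl4* and *Cxcl16*), so that none of the 4 was called in both. *Cxcl16* was also lost with no filter. Marker genes moved with the comparison. Of 11 immediate early genes of the isolation response tested, 5 were called higher in GF than in SPF 5xFAD mice (*Atf3*, *Jun*, *Zfp36*, *Ier2* and *Junb*), and the 12 listed genes summed to 757 to 824 CPM in SPF and 996 to 1182 CPM in GF 5xFAD mice. The 5 neutrophil markers and the monocyte marker *Chil3* were called lower in GF 5xFAD mice. The 5 dendritic cell markers summed to 3.93 to 10.2 CPM in SPF and 15.8 to 23.3 CPM in GF 5xFAD mice, and 1 of them, *Cd209a*, was called higher. The 4 astrocyte markers summed to 223 to 239 CPM in SPF and 155 to 189 CPM in GF 5xFAD mice and the 4 endothelial markers to 23.9 to 29.7 and 9.42 to 21.4 CPM, with 0 of either list called (1 and 1 at an unadjusted p under 0.05, by edgeR). The part of any of these in the ligand levels was not tested.

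In ABX 5xFAD mice no difference from SPF 5xFAD mice was detected for any ligand, and *Ccl3*, *Ccl4* and *Ccl6* were lower than in GF 5xFAD mice. Against SPF 5xFAD mice, edgeR called 0 of 9 ligands, 0 at an unadjusted p under 0.05, and DESeq2 and voomWithQualityWeights called 0 as well, where 0 percent of all genes were called by edgeR. The log2 difference was 0.10 for *Ccl3* (95% interval -0.50 to 0.69), 0.03 for *Ccl4* (-0.67 to 0.73), -0.14 for *Ccl6* (-0.51 to 0.23) and 0.14 for *Cxcl16* (-0.16 to 0.45). Against GF 5xFAD mice 3 of 9 ligands were called, all lower, where 10.6 percent of all genes were called and 6.07 percent were called lower. *Ccl3* fell by 0.94 ± 0.25 on the log2 scale (adjusted p = 0.0149), *Ccl4* fell by 1.14 ± 0.29 (adjusted p = 0.0133) and *Ccl6* fell by 0.80 ± 0.15 (adjusted p = 0.00181). *Cxcl16* differed by -0.35 ± 0.13 and did not pass (adjusted p = 0.0743), although 5 of 6 ABX mice lay below all GF mice. The comparisons of SPF with GF and of GF with ABX mice share the GF 5xFAD mice.

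Without mouse FAD_GF_182 only *Ccl6* was called lower in ABX than in GF 5xFAD mice. *Ccl3* also missed the threshold when only these groups were fitted (-0.90, adjusted p = 0.0565), and voomWithQualityWeights called *Cxcl16* lower too (-0.43, adjusted p = 0.0198). Without FAD_GF_201 the differences were -1.11 for *Ccl3*, -1.31 for *Ccl4* and -0.94 for *Ccl6*, and *Cxcl16* passed too at -0.40 (adjusted p = 0.0411). Over the 26 mice without FAD_ABX_1151 and FAD_ABX_1482, *Ccl3* (-0.93, adjusted p = 0.0329), *Ccl6* (-0.72, adjusted p = 0.00852) and *Cxcl16* (-0.40, adjusted p = 0.0194) were called lower and *Ccl4* was not (-1.02, adjusted p = 0.0503). FAD_ABX_1482 had the highest *Cxcl16* of the ABX 5xFAD mice (164 CPM), and no reason for leaving it out is given. Without it alone *Cxcl16* passed (-0.48, adjusted p = 0.00428), and without FAD_ABX_1151 alone it did not (-0.26, adjusted p = 0.198). The library descriptions take 2 forms, which the sources used here do not call batches. Those of all SPF mice, the ABX WT mice and FAD_ABX_1151 join a running number to the mouse number, and those of 5 ABX 5xFAD mice and of every GF mouse join it to the group. Without FAD_ABX_1151, within the second form, *Ccl3* (-0.86, adjusted p = 0.0437), *Ccl4* (-1.05, adjusted p = 0.0398) and *Ccl6* (-0.75, adjusted p = 0.00697) stayed lower. Both genotypes share a form in SPF mice and in GF mice. In the first form, however, some running numbers occur for both a WT and a 5xFAD mouse, so a shared form need not mean a shared series. Any such series could not be told apart from genotype in SPF mice, and this was not tested. The 5xFAD mice of the first form were also those with high neutrophil marker sums (61.1 to 263 CPM in SPF mice, 143.6 CPM in FAD_ABX_1151). In ABX mice the only 5xFAD mouse that shares the form of the WT mice is FAD_ABX_1151, and between SPF and GF mice form and housing cannot be told apart. Of 8 microglial markers *P2ry12*, *Sall1* and *Cx3cr1* were called higher and *Fcrls* lower in ABX than in GF 5xFAD mice. The immediate early genes *Zfp36* and *Ier2* were lower in that comparison. Also called higher were 4 of 5 neutrophil markers, high in FAD_ABX_1151 and at most 0.774 CPM in sum in the other 5 ABX mice, and *Mrc1* of the border-associated macrophage, *Chil3* of the monocyte, *Flt3* of the dendritic cell and *Slc1a3* of the astrocyte markers. The part of any of these in the ligand levels was not tested.

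**Figure D5:**
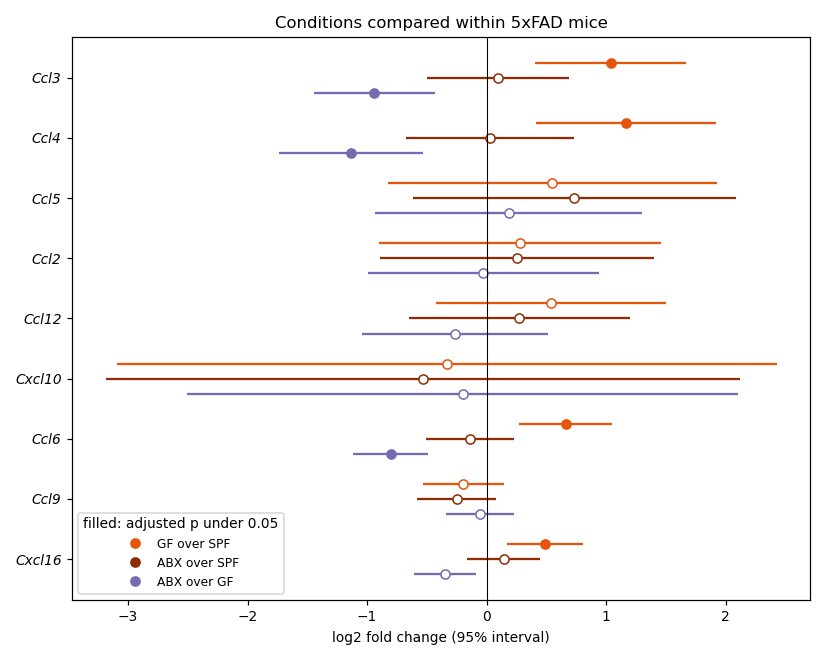
Log2 fold change (x axis) with its 95% interval (bars) for each ligand gene (y axis) in the comparisons of GF over SPF, ABX over SPF and ABX over GF 5xFAD mice, with filled points for an adjusted p under 0.05. Ccl3, Ccl4 and Ccl6 lie to the right of 0 for GF over SPF and to the left for ABX over GF, and no point of ABX over SPF is filled.

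In WT mice no ligand was called between conditions. In the comparisons of GF with SPF (1.62 percent of all genes called), ABX with SPF (0 percent) and ABX with GF mice (6.88 percent), edgeR called 0 of 9 ligands, and so did DESeq2 and voomWithQualityWeights. At an unadjusted p under 0.05 there were 0, 1 and 0 of them, the 1 being *Ccl9* in ABX against SPF mice (0.37 ± 0.15 on the log2 scale). *Ccl3* differed by 0.18 (95% interval -0.41 to 0.77), *Ccl4* by 0.26 (-0.42 to 0.94), *Ccl6* by 0.24 (-0.11 to 0.59) and *Cxcl16* by 0.18 (-0.11 to 0.47) between GF and SPF WT mice. The immediate early genes summed to 927 to 1060 CPM in SPF WT and 953 to 1395 CPM in GF WT mice.

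Whether the genotype difference itself changed with the condition was tested as an interaction. Between GF and SPF mice 0 of 9 ligands passed by edgeR, DESeq2 or voomWithQualityWeights (0 percent of all genes by edgeR), with 0 at an unadjusted p under 0.05. The interaction was 0.86 (95% interval -0.0017 to 1.71) for *Ccl3*, 0.91 (-0.10 to 1.92) for *Ccl4*, 0.43 (-0.09 to 0.94) for *Ccl6* and 0.31 (-0.12 to 0.74) for *Cxcl16*. A larger genotype difference in GF than in SPF mice was therefore not shown for any ligand. Between ABX and SPF mice 0 of 9 passed by the same 3 methods (0 percent by edgeR), with 1 at an unadjusted p under 0.05, *Ccl9* at -0.62 ± 0.22. Between ABX and GF mice 1 of 9 passed, where 1.76 percent of all genes passed and 0.843 percent were lower. It was *Ccl6*, whose genotype difference of 1.63 in ABX mice was smaller than that of 2.52 in GF mice by 0.88 ± 0.23 (adjusted p = 0.0452). That call was lost in 20 of 35 other settings, among them the 26 mice (adjusted p = 0.0717) and the omission of any 1 of 19 single mice.

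The groups were also put in order of their mean log2 CPM for each ligand. *Ccl3* and *Ccl4* shared the order GF 5xFAD, ABX 5xFAD, SPF 5xFAD, GF WT, SPF WT and ABX WT. *Ccl6* ran from GF, SPF and ABX 5xFAD to ABX, GF and SPF WT mice, *Cxcl16* from GF, ABX and SPF 5xFAD to GF, ABX and SPF WT mice, and *Ccl12* and *Ccl2* both from GF, ABX and SPF 5xFAD to ABX, GF and SPF WT mice. *Ccl5* ran from ABX, GF and SPF 5xFAD to SPF, GF and ABX WT mice, and *Cxcl10* from SPF, ABX and GF 5xFAD to ABX, GF and SPF WT mice. For *Ccl9* genotype did not sort the order, which was ABX WT, SPF 5xFAD, GF 5xFAD, GF WT, ABX 5xFAD and SPF WT. In exact two-sided permutation tests of the 45 pairs of neighbours, 7 had an unadjusted p under 0.05 and 0 an adjusted one. These groups allow no p below 0.00216 to 0.0286, depending on their sizes, where a pair alone would need 0.00111 to pass the adjustment over 45 tests, so a pair could not have passed on its own and the adjusted values do not show which neighbours differ. The 7 pairs were GF and ABX 5xFAD for *Ccl3* and *Ccl4*, and the last 5xFAD and the first WT group for *Ccl3*, *Ccl5*, *Ccl6*, *Ccl12* and *Cxcl16*. The lowest p was 0.00216, for *Ccl6* in ABX 5xFAD against ABX WT mice, which did not overlap. Of the other 38 pairs 37 overlapped, and the exception was *Ccl4* in SPF 5xFAD against GF WT mice (exact permutation p = 0.0571, where 0.0286 is the smallest these groups allow). With library size alone GF 5xFAD moved from the third to the fifth place for *Ccl9*, GF and ABX 5xFAD changed places for *Ccl2*, and GF and ABX WT for *Ccl5*. With a prior count of 0.5 SPF WT moved ahead of ABX and GF WT for *Cxcl10*. The orders of *Ccl3*, *Ccl4*, *Ccl6*, *Ccl12* and *Cxcl16* were the same in both.

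Of 31 other chemokine ligands that the table holds, 15 passed the filter, and 9 of the other 16 had no read in any library. Of these 15, *Pf4*, *Cxcl13* and *Cxcl14* were higher in SPF 5xFAD mice, *Cxcl14* alone in GF 5xFAD mice and *Pf4*, *Cxcl13*, *Cxcl14* and *Ccl8* in ABX 5xFAD mice. Of all genes 3.73, 9.43 and 9.45 percent were called higher in SPF, GF and ABX mice, and the single call in GF mice is not above that share. *Cxcl14* rose from 0.0705 ± 0.108 CPM (SD, n = 5) to 1.70 ± 0.272 (n = 3) in SPF, from 0.229 ± 0.142 (n = 4) to 3.24 ± 1.37 (n = 5) in GF and from 0.0434 ± 0.0971 (n = 5) to 1.76 ± 0.975 (n = 6) in ABX mice. *Pf4* is also a marker of border-associated macrophages, and reached 13.5 ± 10.3 CPM in ABX 5xFAD mice (n = 6), in which all 6 markers of these cells were called higher. *Ccl8* was at 0 in all SPF WT and ABX WT mice and at 3.38 ± 4.06 CPM in ABX 5xFAD mice, whose range from 0 to 10.4 CPM was wide.

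Among receptor genes, *Ccr2* was higher in 5xFAD than in WT mice under ABX conditions. Of 5 receptor genes counted (*Ccr1*, *Ccr2*, *Ccr3*, *Cxcr3* and *Cxcr6*), edgeR called 0 between genotypes in SPF mice (1 at an unadjusted p under 0.05), 0 in GF mice (0 at an unadjusted p under 0.05) and 1, *Ccr2*, in ABX mice. Of all genes 4.57, 15.6 and 14.4 percent were called in SPF, GF and ABX mice, so 1 of 5 lies near that share. *Ccr2*, the receptor of CCL2 and CCL12 and a gene of monocytes, measured 5.58 ± 3.21 CPM (SD, n = 5) in ABX WT and 25.3 ± 18.1 CPM (n = 6) in ABX 5xFAD mice, a log2 difference of 2.17 ± 0.49 (adjusted p = 0.0028). The highest ABX WT mouse reached 8.14 CPM and the lowest ABX 5xFAD mouse 8.69 CPM. The 5 monocyte marker genes, *Ccr2* among them, summed to 2.08 to 9.05 CPM in ABX WT and 14.4 to 51.9 CPM in ABX 5xFAD mice, and the part of such cells was not tested. *Ccr1* was higher in ABX than in GF 5xFAD mice (1.37 ± 0.28, adjusted p = 0.00341). Of the atypical receptors only *Ccrl2* passed the filter, and it was higher in GF 5xFAD than in GF WT mice (0.81 ± 0.18, adjusted p = 0.00148).

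Genes that act upstream and downstream of the ligands were counted in the same way. Of 11 interferon-response genes, the number called higher in 5xFAD than in WT mice was 3 under SPF, 4 under GF and 7 under ABX conditions, where 3.73, 9.43 and 9.45 percent of all genes were called higher. *Oasl2* and *Ifit2* were among them in each condition, *Oasl2* with log2 differences of 3.22 ± 0.59, 2.58 ± 0.58 and 2.98 ± 0.54. Of 14 genes of NF-kappaB and its inducing cytokines, edgeR called 0 in SPF and 0 in ABX mice (4 and 4 at an unadjusted p under 0.05), and in GF mice *Nfkbiz* was higher (0.64 ± 0.21) and *Nfkb1* (-0.49 ± 0.10) and *Nfkbie* (-0.68 ± 0.16) were lower. Of 14 genes of chemokine receptor signal transduction, edgeR called 0 in SPF (2 at an unadjusted p under 0.05), 1 in GF (*Gnb1*, higher) and 3 in ABX mice (*Gnai2* and *Dock2* higher, *Rgs10* lower). Beside these lists of 14, 4.57, 15.6 and 14.4 percent of all genes were called in SPF, GF and ABX mice, so their counts lie near or below the share over all genes. Of 5 genes of proteases that shed CXCL16 or process CC chemokines, *Mmp9* and *Mmp12* were higher in SPF and ABX 5xFAD mice and *Dpp4* in ABX 5xFAD mice. Levels were low and uneven, at 1.58 ± 1.82 CPM (SD, range 0 to 4.82) for *Mmp9*, 7.07 ± 4.04 CPM for *Mmp12* and 0.794 ± 1.55 CPM (range 0 to 3.88) for *Dpp4* in the 6 ABX 5xFAD mice, and neutrophil markers were called higher in the same comparisons. *Adam10*, the sheddase of CXCL16, was lower in GF than in SPF 5xFAD mice (-0.58 ± 0.15, adjusted p = 0.00957), the comparison in which *Cxcl16* was higher.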

How the data were processed

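Raw gene counts of 28 microglial RNA-seq libraries were used as deposited by the authors, who aligned the reads with STAR to GRCm38 and counted them with featureCounts and GENCODE M21. The submitters' processing notes list STAR 2.7.2 and featureCounts 1.6.2, and name a human build, GRCh38.p12, where the methods name the mouse genome. The 92 spike-in entries (at most 12 reads per library) were left out. All sample columns of the table were used. Groups came from titles and genotype labels.

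Genes were kept with filterByExpr (minimum count 10, minimum total 15), which left 15298 genes. Counts were scaled by TMM (factors 0.918 to 1.07) and tested with the quasi-likelihood test of edgeR 4.0.16 in R 4.3.3, in 1 model with 1 term per group. P-values were adjusted by the Benjamini-Hochberg method over these 15298 genes, at a threshold of 0.05. The study used limma's voomWithQualityWeights, which was run here as an alternative. CPM values are TMM-scaled, except sums of marker genes, which refer to library totals. RPKM used the deposited gene lengths. Correlations and orders of groups used log2 CPM with a prior count of 2. Neighbouring groups were compared with exact two-sided permutation tests. No pair of libraries of 1 group agreed within counting noise (chi-square per degree of freedom at least 6.39).

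Alternatives were RLE factors, library size alone, no filter, at least 10 counts in every library, DESeq2 1.42.0, voomWithQualityWeights (limma 3.58.1), a fit of only the groups compared, leaving out each mouse, and the 26 mice without FAD_ABX_1151 and FAD_ABX_1482. The procedure was tested on simulated data in which all genes had the same dispersion, unlike the real data. Between GF and SPF 5xFAD mice edgeR there recovered 38 percent of genes given a log2 change of 1. It recovered 98 percent of those given a log2 change of 2, and 4.23 percent of its calls were false. All 9 ligands are named. From each other list at most 4 genes are named, those called in most contrasts, with further called genes named where 5 or fewer were called, chosen after their values were seen. The members and lists were chosen with earlier results of these data known. Intervals are the log2 difference between groups plus or minus its SE times a t quantile. They give the uncertainty of that difference under the fitted model, and not the range of single mice. Protein sequences were not used here. A few genes of the other lists are not reported here.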

Additional observations from a re-analysis of the deposited data

Results flagged for a closer look

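In 5 combinations of ligand and group, which lie in 4 groups, 1 mouse stood apart from the others of its group, by the gap to the nearest mouse as a share of the group's range. Mouse WT_GF_230 had 108 CPM of *Ccl12*, where the next GF WT mouse had 23.3 CPM, and 23.0 CPM of *Cxcl10*, where the next had 1.61 CPM. Mouse WT_ABX_923 had 15.1 CPM of *Ccl2* against 4.752 CPM in the next ABX WT mouse. Mouse WT_SPF_936 had 9.78 CPM of *Cxcl10* against 2.24 CPM in the next SPF WT mouse, and mouse FAD_ABX_1452 had 29.0 CPM of *Cxcl10* against 6.64 CPM in the next ABX 5xFAD mouse. Each was the highest of its group. The rule was applied to 45 combinations of ligand and group, and chance flags about 1 in 20 if values are normally distributed. It was applied to CPM without logarithms, so chance may flag more for uneven values such as those of *Cxcl10*.

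The genotype difference of *Ccl6* was smaller in ABX than in GF mice, with an interaction of -0.884 on the log2 scale (edgeR, adjusted p = 0.0452), a call that was lost in 20 of 35 alternatives (adjusted p 0.00671 to 0.106). The mean was 254 CPM in ABX WT and 788 CPM in ABX 5xFAD mice, and 240 CPM in GF WT and 1375 CPM in GF 5xFAD mice.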

How the results depend on the processing

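No paired analysis was possible because the mouse numbers in the titles are not shared between groups. Of 1677 values that the alternatives gave for 47 ligand differences, 1603 kept their direction and their side of the threshold, 47 lost the call, 19 gained one and 8 changed direction. The genotype calls of *Ccl3*, *Ccl4*, *Ccl6* and *Cxcl16* were kept in all 36 alternatives in each condition, and those of *Ccl5* in GF and ABX mice in all 35 in which it could be tested. The number of ligands called in GF against SPF 5xFAD mice was 2 with library size alone and 2 others in the fit of the groups compared, and 0 to 4 when single mice were left out. In ABX against GF 5xFAD mice leaving out single mice gave 1 to 4 calls, the fit of the groups compared lost *Ccl3* and voomWithQualityWeights added *Cxcl16*. For the interaction of ABX with GF mice the number was 0 over the 26 mice and 0 to 1 when single mice were left out. In SPF mice voomWithQualityWeights and the fit of the groups compared each called 6 ligands, *Ccl5* and *Ccl12* in addition. The cause of these changes was not tested.

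Differences near 0 changed sign. That of *Ccl9* between genotypes in GF mice was -0.074 with library size alone, which shifts the median of all genes to -0.15, and ranged from -0.039 to 0.13 when single mice were left out. That of *Cxcl10* ranged from -0.53 to 3.17 in GF and from -0.52 to 1.71 in ABX mice. Between GF and SPF 5xFAD mice *Ccl9* ranged from -0.33 to 0.017 and *Cxcl10* from -1.26 to 0.027. Low counts limit *Ccl5*, *Ccl2* and *Cxcl10*, and 3 SPF 5xFAD mice limit each comparison with that group.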

Other observations

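The makeup of the 9 ligands, as each gene's share of their summed level per length (RPKM), also differed between genotypes. The summed level was 340 ± 37.6 RPKM (SD, n = 5) in SPF WT, 404 ± 174 (n = 4) in GF WT and 398 ± 51.1 (n = 5) in ABX WT mice, and 1112 ± 258 (n = 3), 1880 ± 556 (n = 5) and 1102 ± 198 (n = 6) in the matching 5xFAD mice. *Ccl3* made up 6.25 to 8.32 percent of it on average in the 3 WT groups and 16.4 to 19.8 percent in the 3 5xFAD groups. *Ccl4* made up 10.6 to 14.0 percent in WT and 16.5 to 21.5 percent in 5xFAD groups, and *Ccl6* 33.5 to 35.7 percent and 40.3 to 43.6 percent. The shares of *Ccl9* were 18.8 to 21.5 percent in WT and 4.17 to 7.51 percent in 5xFAD groups, those of *Ccl12* 17.7 to 18.8 and 10.1 to 13.3 percent and those of *Cxcl16* 5.09 to 5.94 and 2.74 to 3.54 percent, although *Cxcl16* itself was called higher in 5xFAD mice. These shares were looked at after the levels had been seen and were not tested.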
